A study of Mus musculus with 8 samples.

Results

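Acetylation of histone H3 at lysine 27 (H3K27ac) was examined over 9 genes of the myelin sheath, Mbp, Mobp, Mal, Cldn11, Cnp, Mag, Mog, Opalin and Ermn, of the 21951 protein-coding genes of the mouse annotation (GENCODE M21, genome build GRCm38/mm10). The genes were listed by name, for their place in the sheath. Every peak that lay over one of these genes or within 20 kb of it was taken from both deposited peak lists. The lists come from Oli-neu cells, a mouse line of embryonic derived oligodendrocyte progenitor cells that the labels assign to the C57BL/6 strain and that was made with an activated neu oncogene. Proliferating cells were kept with 10 ng/ml bFGF and 1 ng/ml Pdgf-BB. Differentiating cells were kept without growth factors, for 1 day by the labels (the study's culture methods give a longer time), and with 1 μM of the erb inhibitor PD174265. Thyroid hormones were part of the medium used for expansion. Both states were profiled by ChIP-seq (sequencing of the DNA recovered by chromatin immunoprecipitation) with the same H3K27ac antibody, with 1 library per state, and no input library is named. The 6 ATAC-seq samples of the series, 3 siCtr and 3 siPadi2, were not analysed here.

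Oligodendrocytes wrap axons with sheets of their own membrane. In compact myelin the cytoplasm has been squeezed out and facing membranes are held together by small basic and proteolipid proteins, whereas cytoplasm remains in channels, at the inner and outer edges of the sheath and in the loops beside the nodes. The genes for these proteins are known to be switched on late in the lineage, when a precursor leaves the cell cycle. H3K27ac is a mark of active promoters and enhancers, and enhancers of myelin genes often lie in introns or several kilobases from the transcription start site (TSS).

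With a single library for each state there was no replicate error to judge a difference between the lists by, and none was tested. Read counts are not part of the lists. The study's methods give more uniquely mapped reads for the differentiating than for the proliferating library. For each peak the lists give a fold enrichment, which is a ratio to the local background of the peak caller, and its significance as −log10 q. Because −log10 q grows with sequencing depth, it was read between the states as a percentile, the percent of peaks in the same list that had a lower value. The lowest −log10 q was 1.00 in the proliferating list of 28924 peaks and 1.01 in the differentiating list of 27965 peaks.

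Of the 9 genes, 7 had a peak within 20 kb in proliferating cells and 6 in differentiating cells. Among all protein-coding genes the share was 62.7% in each state. Mbp, Mog, Cnp, Mal, Cldn11 and Opalin had a peak in both states, against 53.1% of all genes. Ermn had one in proliferating cells only, and Mag and Mobp had none in either state, a class that holds 27.6% of all genes. Each list placed 14 peaks in the 9 windows, of which Cnp held 4 in each state. The member windows thus held 2.30 peaks per 100 kb in both states, compared with 1.44 per 100 kb over the merged windows of all genes in each list. In the second value a base that lies in the windows of several genes counts once. Counted per gene, the members had from 0 to 4 peaks per window. The median over all protein-coding genes was 1 in each state, and 11.2% of them had at least 4. The median window was 55698 bp for the members and 57403 bp for all genes.

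**Figure D1:**
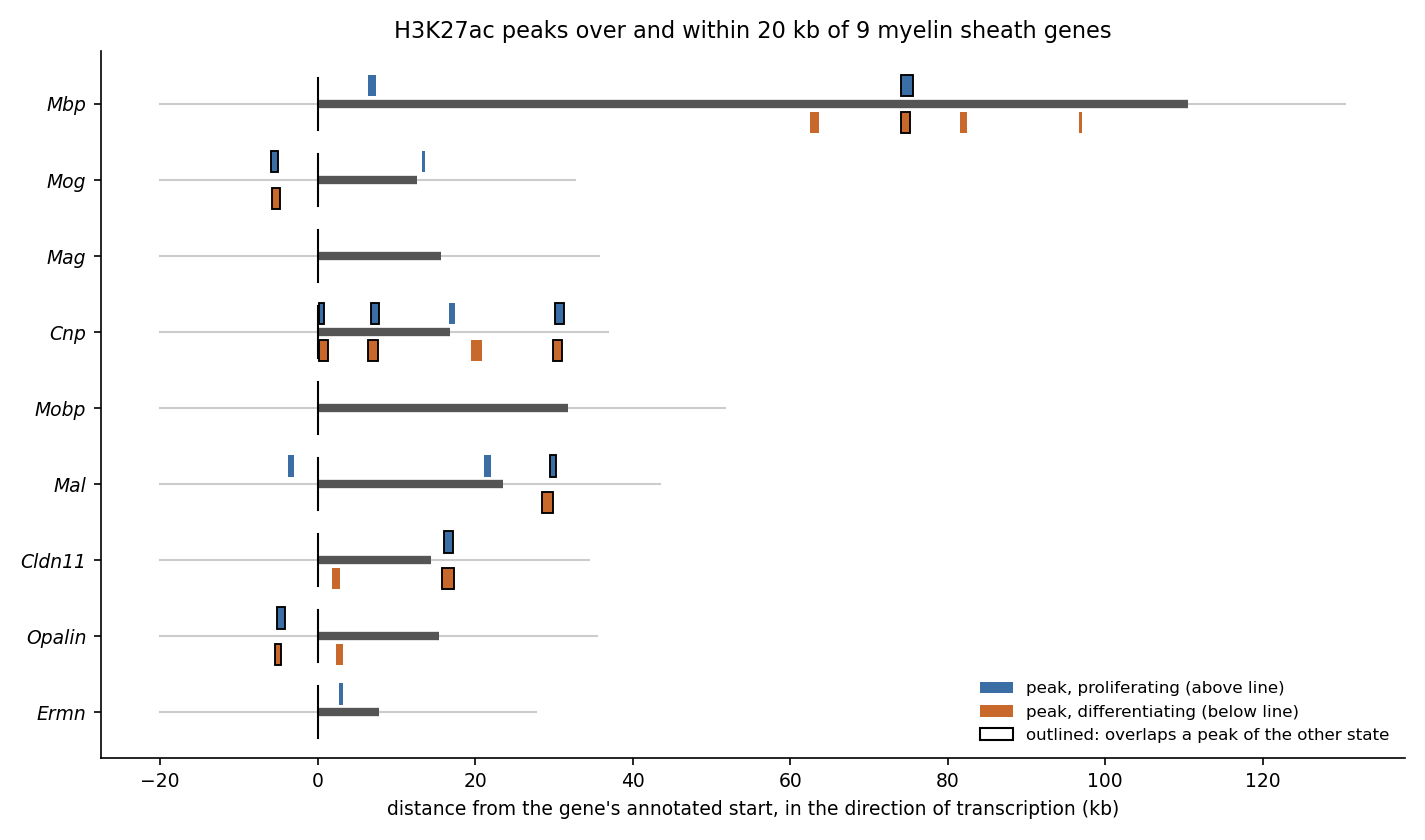
Position of every H3K27ac peak over or within 20 kb of the 9 genes, as distance (kb) from the gene's annotated start in the direction of transcription. Dark bars are gene bodies, grey lines the windows, blue boxes (above) peaks of proliferating cells, orange boxes (below) peaks of differentiating cells, and outlined boxes overlap a peak of the other state. There are 14 peaks per state, and Mag and Mobp have none.

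Mbp encodes myelin basic protein, which draws the cytoplasmic faces of the membrane together in compact myelin. It lies on chromosome 18 from 82475146 to 82585637 on the plus strand (ENSMUSG00000041607.17) and has 16 annotated transcripts with 12 different start sites. The first starts, near 82475146, give the long Golli transcripts, and the starts from 82554470 to 82554580 give the classic myelin transcripts. In proliferating cells Mbp had 2 peaks. One, from 82481588 to 82482560, lay 6442 bp past the Golli start in an intron, with a fold enrichment of 3.46 and a −log10 q at percentile 51.9. The other, from 82549189 to 82550781, ended 3689 bp before the first classic start and was 1593 bp wide, with a fold enrichment of 3.20 at percentile 86.8.

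In differentiating cells Mbp had 4 peaks. The region before the classic starts was again under a peak, from 82549253 to 82550339, with a fold enrichment of 3.26 at percentile 79.7, and all 1087 bp of this peak lay inside the wider peak of proliferating cells. The other 3 had no counterpart. They lay from 82537600 to 82538857 (percentile 70.2), from 82556719 to 82557606 (percentile 22.6) and from 82571759 to 82572212 (percentile 47.2). The peak at percentile 22.6 began 2139 bp past the last classic start, within the first intron of the classic transcripts and over the non-coding end of the last exon of the Golli transcript Mbp-205. The peak near the Golli start was absent from the differentiating list, where the nearest peak was 55040 bp away. None of the regions of Mbp lay over any of its start sites.

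Mobp encodes a small basic protein of the cytoplasmic face of compact myelin. The gene spans chromosome 9 from 120149707 to 120181484 on the plus strand (ENSMUSG00000032517.16). No peak of either list lay within 20 kb of it. The nearest in differentiating cells was 21477 bp away, over Rpsa, a gene for a ribosomal protein, and ranked at percentile 33.6. In proliferating cells the nearest was 211878 bp away. On chromosome 9, 57.5% of protein-coding genes had a peak within 20 kb in proliferating cells and 56.8% in differentiating cells.

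Mal encodes a proteolipid of membrane rafts that takes part in sorting proteins to the sheath. The gene spans chromosome 2 from 127633226 to 127656695 on the minus strand (ENSMUSG00000027375.14). Proliferating cells had 3 peaks there and differentiating cells 1, all low in their lists. A peak from 127659726 to 127660492 lay 3031 bp upstream of the start, at percentile 20.9, and was found in proliferating cells only. Another, from 127634649 to 127635553, covered 72 coding bases near the end of the gene and, at percentile 6.85, was the lowest of all peaks of the 9 genes. The region in both states lay downstream of the gene. Its peak ran from 127626402 to 127627224 at percentile 38.5 in proliferating cells and from 127626865 to 127628218 at percentile 33.7 in differentiating cells, and the overlap of 360 bp was 43.7% of the first peak and 26.6% of the second.

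Cldn11 encodes claudin-11, the protein of the tight junctions that run between the turns of the sheath. Cldn11 is on chromosome 3 from 31149920 to 31164324 on the plus strand (ENSMUSG00000037625.7) and has 1 annotated transcript. A region past its end, 1678 bp away in proliferating and 1381 bp in differentiating cells, was under a peak in both states. In proliferating cells this peak ran from 31166002 to 31167043, with a fold enrichment of 3.04 at percentile 27.04. In differentiating cells it ran from 31165705 to 31167291, with a fold enrichment of 3.60 at percentile 85.0, and contained the whole of the other peak. A second peak was listed in differentiating cells only, from 31151754 to 31152731 in the first intron, 1834 bp past the start, with a fold enrichment of 3.78 at percentile 84.4. Of the 8 regions under peaks of both states, the one past the end of Cldn11 had the widest gap in percentile. The middle 300 bases of the overlap are shown for this reason, from the plus strand of the reference genome (RefSeq, GRCm38), chr3:31166373-31166672, with the letters ACAATG, a form of the core bound by SOX factors, in capitals.
Cldn11 downstream region: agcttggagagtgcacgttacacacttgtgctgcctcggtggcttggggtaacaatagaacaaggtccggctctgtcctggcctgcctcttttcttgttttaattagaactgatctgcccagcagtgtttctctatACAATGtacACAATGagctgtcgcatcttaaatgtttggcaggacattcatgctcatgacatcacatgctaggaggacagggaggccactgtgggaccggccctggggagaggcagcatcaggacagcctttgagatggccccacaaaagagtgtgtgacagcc
The core occurred 2 times in this stretch.

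Cnp encodes a cyclic nucleotide phosphodiesterase that keeps cytoplasmic channels of the sheath open. Cnp occupies chromosome 11 from 100574904 to 100591729 on the plus strand (ENSMUSG00000006782.16), on a chromosome where 78.5% of protein-coding genes had a peak within 20 kb in proliferating cells and 76.8% in differentiating cells. Cnp had the highest-ranked peaks of the 9 genes in both states, beginning at the end of the first exon of its main transcript and running into that transcript's first intron. In proliferating cells this peak ran from 100575060 to 100575754, with a fold enrichment of 4.11 and a −log10 q of 4.55 at percentile 94.4. In differentiating cells it ran from 100575062 to 100576190, with a fold enrichment of 4.36 and a −log10 q of 7.60 at percentile 98.2, rank 510 of its list. Both began beyond the start of the main transcript, by 156 and 158 bp, and covered 3 bases of coding sequence at the end of the first exon. Exons of non-coding transcripts of Cnp lie in the same intron, so that 347 of 695 bp and 781 of 1129 bp of the peaks were over an annotated exon. The starts of non-coding transcripts of Cnp at 100575112 and 100575524 lay under both, and a further start at 100575891 only under the wider peak of differentiating cells.

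Both lists also had a peak over the next region, which in proliferating cells spanned 100581631 to 100582643 at percentile 49.6 and in differentiating cells 100581330 to 100582562 at percentile 81.2. It lies at the end of the main transcript, over non-coding exon sequence and an intron of the longer transcript Cnp-202. Farther on, the windows run into Dnajc7, a gene for a co-chaperone. There a region with the bounds 100605008 to 100606138 in proliferating cells (percentile 48.0) and from 100604775 to 100605941 in differentiating cells (percentile 77.8) was under a peak of both states. A peak of proliferating cells from 100591571 to 100592312 (percentile 21.6) and a peak of differentiating cells from 100594369 to 100595748 (percentile 92.0) lay 2057 bp apart and had no counterpart. These 4 peaks overlapped Dnajc7 and cannot be assigned to either gene from position. All 3 regions of Cnp in both states ranked higher in the differentiating list, while the fold enrichment was higher there only for the region in the first intron (3.37 against 3.10 at the end of the main transcript and 3.12 against 3.03 over Dnajc7, the proliferating value first).

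The regions in the first intron and at the end of the main transcript are shown, one for the highest-ranked peaks of the set and the other for its repeated SOX core. The first is the overlap at chr11:100575224-100575523, shifted by 35 bases from its middle to keep clear of annotated exons, and the second is the middle of the overlap at chr11:100581947-100582246, both on the plus strand of GRCm38. Capitals mark CAGCTG, an E-box form bound by basic helix-loop-helix factors, in the first, and ACAAAG or its reverse complement CTTTGT in the second.
Cnp first intron: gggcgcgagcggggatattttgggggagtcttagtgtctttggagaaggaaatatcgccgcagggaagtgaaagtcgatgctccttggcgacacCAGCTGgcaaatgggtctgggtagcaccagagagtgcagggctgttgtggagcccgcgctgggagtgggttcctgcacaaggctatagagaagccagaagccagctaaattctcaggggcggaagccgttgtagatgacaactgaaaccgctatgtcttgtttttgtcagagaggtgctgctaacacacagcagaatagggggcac
Cnp end of main transcript: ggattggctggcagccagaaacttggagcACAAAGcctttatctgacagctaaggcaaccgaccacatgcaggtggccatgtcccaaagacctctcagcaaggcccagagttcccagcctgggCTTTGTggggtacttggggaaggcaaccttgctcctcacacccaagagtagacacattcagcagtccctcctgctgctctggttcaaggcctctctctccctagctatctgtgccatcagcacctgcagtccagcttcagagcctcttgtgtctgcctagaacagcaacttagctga
The first stretch held 1 match to the E-box form and the second held 2 matches to the SOX core.

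Mag encodes a sialic acid-binding protein of the innermost membrane, which faces the axon. Mag is on chromosome 7 from 30899176 to 30914873 on the minus strand (ENSMUSG00000036634.15). Neither list had a peak within 20 kb. The nearest peaks were 41414 bp away in proliferating cells (percentile 68.0) and 41501 bp away in differentiating cells (percentile 90.7), both over Usf2, which encodes a widely expressed transcription factor. On chromosome 7, 43.3% of protein-coding genes had a peak within 20 kb in proliferating cells and 44.7% in differentiating cells. The share over all protein-coding genes was 62.7% in each state.

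Mog encodes an immunoglobulin-like glycoprotein of the outermost lamella and is a marker of mature oligodendrocytes. The gene occupies chromosome 17 from 37010743 to 37023398 on the minus strand (ENSMUSG00000076439.12). A region upstream of Mog was under a peak of nearly the same place and strength in both states. In proliferating cells it ran from 37028372 to 37029339, with its near edge 4974 bp before the start, with a fold enrichment of 3.67 at percentile 87.8. In differentiating cells it ran from 37028175 to 37029147, 4777 bp before the start, with a fold enrichment of 3.63 at percentile 84.9. The overlap of 776 bp was 80.2% of the first peak and 79.8% of the second. A second peak of proliferating cells, from 37009755 to 37010170 at percentile 33.2, lay 573 bp past the end of Mog and over Zfp57, a gene for a zinc finger protein, and had no counterpart. The upstream region is shown from its middle, chr17:37028610-37028909 on the plus strand of GRCm38, as the region of the set whose values differed least between the states. It is in lower case throughout because none of the 4 motifs searched was found.
Mog upstream region: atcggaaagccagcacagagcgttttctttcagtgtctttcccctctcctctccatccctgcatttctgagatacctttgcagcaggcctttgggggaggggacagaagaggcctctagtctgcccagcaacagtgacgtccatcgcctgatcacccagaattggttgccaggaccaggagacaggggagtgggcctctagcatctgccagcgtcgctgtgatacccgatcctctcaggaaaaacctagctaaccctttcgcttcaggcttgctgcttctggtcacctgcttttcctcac
Its GC content was 55.3%.

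Opalin encodes a small membrane glycoprotein of oligodendrocytes found at the loops beside the nodes. It lies on chromosome 19 from 41061710 to 41077113 on the minus strand (ENSMUSG00000050121.9). As at Mog, both lists had a peak over a region upstream. In proliferating cells it ran from 41081282 to 41082279, 4169 bp before the start, and in differentiating cells from 41081822 to 41082478, 4709 bp before the start. The fold enrichment was 3.44 at percentile 70.7 in the first and 3.76 at percentile 83.6 in the second. Differentiating cells had a further peak in the first intron, from 41073841 to 41074725, 2388 bp past the start, at percentile 43.8. It had no counterpart, and the nearest peak of proliferating cells was 6557 bp away. The overlap of the upstream peaks was 458 bp, and its middle, chr19:41081901-41082200 on the plus strand of GRCm38, is shown beside that of Mog because both lie at a like distance from the start. It too held none of the 4 motifs, and 27.7% of it is masked as repeat in the reference.
Opalin upstream region: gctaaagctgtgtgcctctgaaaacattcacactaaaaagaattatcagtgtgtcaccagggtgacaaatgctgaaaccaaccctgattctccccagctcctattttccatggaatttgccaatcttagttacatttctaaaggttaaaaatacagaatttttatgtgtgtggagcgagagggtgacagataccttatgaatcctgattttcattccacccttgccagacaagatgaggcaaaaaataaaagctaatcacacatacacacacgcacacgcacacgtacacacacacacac
The run of ca at its right end is a simple repeat.

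Ermn encodes ermin, an actin-binding protein of the oligodendrocyte cytoplasm that appears late in differentiation. It lies on chromosome 2 from 58045113 to 58052864 on the minus strand (ENSMUSG00000026830.9) and is the shortest of the genes. Proliferating cells had 1 peak there, from 58049669 to 58050160 in the second intron, 2704 bp past the start, with a fold enrichment of 3.44 at percentile 59.5. Differentiating cells had none within 20 kb. Their nearest peak lay 20909 bp from Ermn, just beyond the limit, at percentile 49.6. The peaks that came next to the limit were, inside it, those of both states over Dnajc7 at 13279 and 13046 bp from Cnp and, outside it, that at 20909 bp from Ermn, that at 21477 bp from Mobp and one of proliferating cells at 22581 bp from Mog, over Gabbr1, at percentile 81.9.

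**Figure D2:**
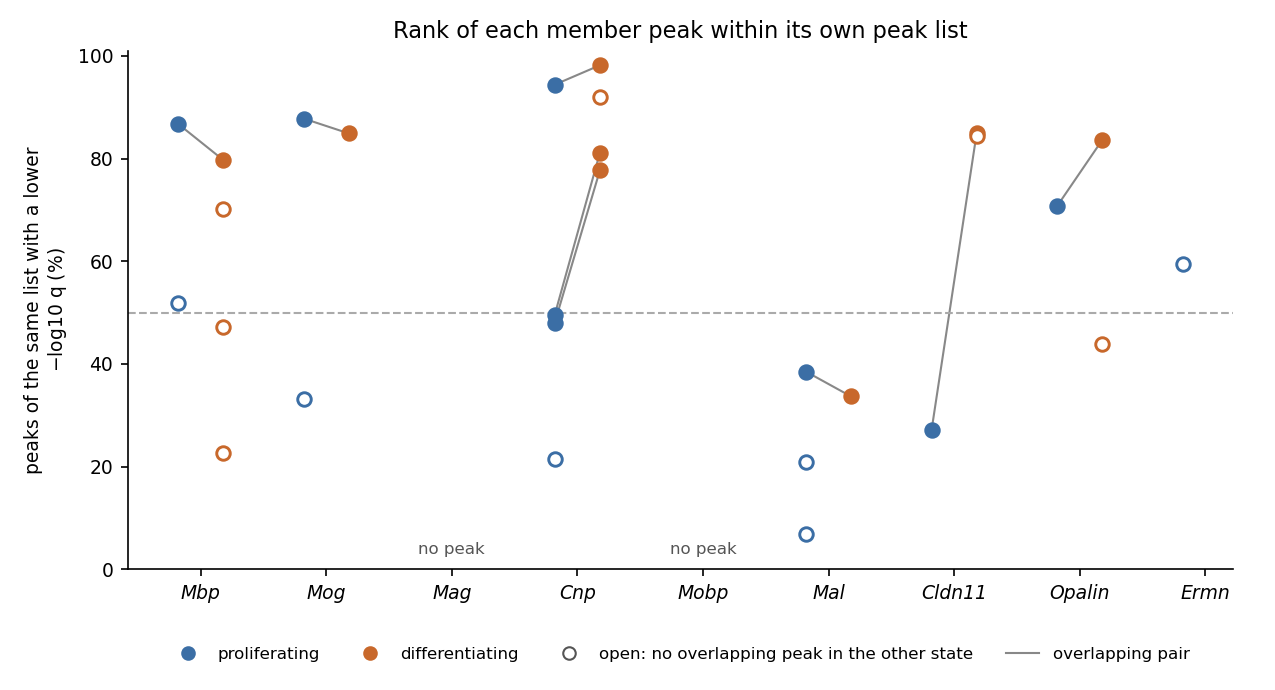
Rank of each peak of the 9 genes within its own list, as the percent of peaks of that list with a lower −log10 q, for proliferating (blue) and differentiating (orange) cells. Filled points joined by a line overlap each other, open points have no overlapping peak in the other state, and the dashed line is the middle of a list. The medians over 14 peaks were 48.8 in proliferating and 80.4 in differentiating cells, and Cnp held the highest point in each state.

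By rank, the peaks of the 9 genes sat near the middle of the proliferating list and in the upper part of the differentiating list. The median percentile by −log10 q was 48.8 (range 6.85 to 94.4) in proliferating cells and 80.4 (range 22.6 to 98.2) in differentiating cells, and 6 of 14 and 10 of 14 peaks lay above the median of their list, which was 1.93 and 1.89. The top 10% of each list held 1 and 2 of them, all at Cnp or Dnajc7. By fold enrichment the medians were alike, 3.25 and 3.26, against 3.33 and 3.13 over all peaks, so that the median percentile was 41.2 in proliferating and 62.7 in differentiating cells. The peaks were wide for their lists in both states, with medians of 936.5 and 1108 bp against 652 and 755 bp, and 12 of 14 exceeded the list's median in each state.

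In each state 8 of the 14 peaks (57.1%, exact binomial interval 28.9 to 82.3%, counting error only) overlapped a peak of the other state by at least 1 base. The interval takes the peaks as independent, although Cnp held 4 of the 14 in each state. Over all peaks the share was 29.2% in the proliferating and 30.1% in the differentiating list. The counts were 3 of 7 and 3 of 8 peaks over the gene bodies alone, for which no share over all peaks was computed. Among peaks at or above the median fold enrichment of their list they were 3 of 6 and 3 of 9, where the share over all peaks was 28.7% and 29.7%. With a −log10 q of at least 5, 0 of 0 and 0 of 1 had a counterpart, against 52.7% and 41.4% of all peaks. Joined, the lists gave 20 separate regions around the 9 genes, 8 in both states, 6 in proliferating cells alone and 6 in differentiating cells alone. The peaks of proliferating cells with a counterpart had a median percentile of 60.2 by −log10 q and those without one 27.4. In differentiating cells the medians were 82.4 and 58.7. A like order held over all peaks, at 76.0 and 40.8 in proliferating and 77.3 and 39.3 in differentiating cells. Peaks in a single list thus had the lower median. Those of the 9 genes in differentiating cells nevertheless ranged from percentile 22.6 to 92.0.

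The 8 regions in both states did not move one way. By percentile, 5 ranked higher in differentiating cells, namely those of Cldn11 and Opalin and the 3 of Cnp, and 3 ranked lower, namely those of Mbp, Mog and Mal. Over all 8471 overlapping pairs of the lists, 51.8% ranked higher in differentiating cells. The median difference, differentiating minus proliferating, was 8.34 percentile points for the 8 regions and 0.316 over all pairs, whose lower and upper quartiles were −13.3 and 16.7. By fold enrichment 4 of the 8 were higher in differentiating cells, against 37.3% of all pairs. In width 6 of the 8 were wider in differentiating cells, against 56.0% of all pairs.

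**Figure D3:**
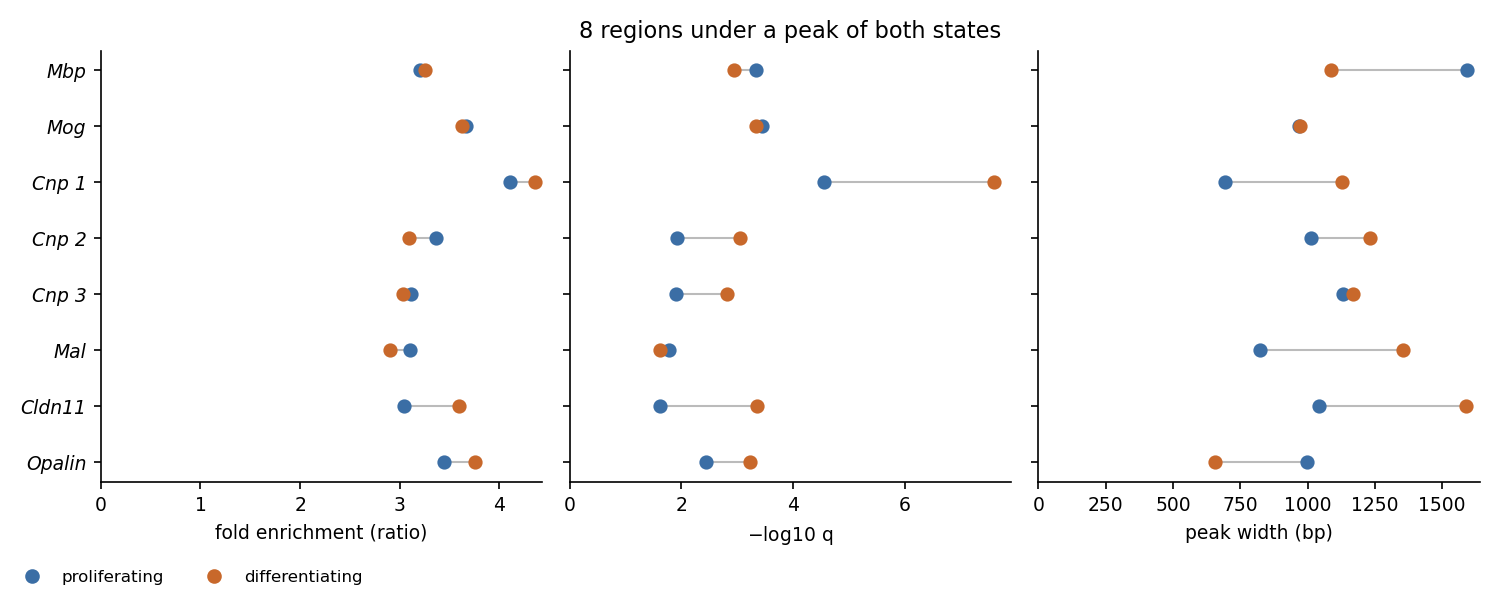
Fold enrichment (ratio, left), −log10 q (middle) and peak width (bp, right) of the 8 regions under a peak of both proliferating (blue) and differentiating (orange) cells, 1 point per state and region. Cnp 1 to Cnp 3 are its regions in order along the gene. The region in the first intron of Cnp is highest in both states by fold enrichment and −log10 q, and the region of Cldn11 changes rank most.

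None of the 9 genes had a peak in its promoter region, taken as 3000 bp upstream to 100 bp downstream of the gene's start, in either state. Of all protein-coding genes 33.8% had one, and 15.8% of proliferating and 19.0% of differentiating peaks lay in such a region. This count uses 1 start per gene. With 1000 bp on both sides, or with the start of every transcript, 1 member (Cnp) had such a peak. Its peaks began 156 and 158 bp past the main start and lay over starts of non-coding transcripts. For these definitions no share over all genes was computed. Next came Mal, whose upstream peak ended 3031 bp before the start of Mal. The peaks lay instead in introns (3 in proliferating and 5 in differentiating cells), partly over exons (4 and 3), upstream (3 and 2) and downstream (4 and 4) of the genes.

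Positions recurred among the genes, and the following groupings were made after the values were seen. Mog and Opalin had a peak with its near edge 3000 to 6000 bp upstream of the start in both states, a place where 1.63% of all genes had a peak in both lists (4.22% in the proliferating and 3.95% in the differentiating list). Mal had one in proliferating cells only. Counted from the classic start instead of the Golli start, the region of Mbp in both states would lie in the same interval, at 3689 and 4131 bp. The shares over all genes use 1 start per gene, so they give no background for this choice of start. Inside the genes, 1000 to 3000 bp past the start, differentiating cells had a peak at Cldn11 and Opalin and proliferating cells one at Ermn, against 2.44% and 2.59% of all genes. Peaks in this place in both lists were found at 0 members and at 0.733% of all genes. The Mbp peak 2139 bp past the classic start was also in the differentiating list alone.

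The median GC content of the peaks was 50.2% in proliferating and 50.3% in differentiating cells, against 47.1% and 47.4% over all peaks. The ratio of observed to expected CpG was 0.290 and 0.270, against 0.212 and 0.223, and none of the peaks exceeded 0.477. Repeat-masked sequence made up a median of 11.0% and 13.3%, against 13.0% and 12.9%.

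The middle 300 bases of the 8 regions in both states were searched on both strands for 4 short motifs, and so were those of all 6676 overlaps of the lists that were at least as long. ACAAAG or ACAATG, the core bound by SOX factors, was found in 4 of the 8, those of Mbp and Cldn11 and those of Cnp at the end of the main transcript and over Dnajc7, and in 28.0% of all overlaps. CAGCTG was found in the regions of Cnp in the first intron and over Dnajc7 and in 19.5% of all overlaps. TGANTCA, bound by AP-1 factors, and CTGGCAC, a form of the site of the myelin regulator MYRF, were found in 0 of 8, and in 5.93% and 5.81% of all overlaps. Such a match describes the letters and does not show binding.

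Other groups of genes were set beside the members by the same windows. Of 20 further myelin and oligodendrocyte genes, 14 had a peak in proliferating and 15 in differentiating cells, and 6 had one in the promoter region in either state. Among the highest-ranked were those at Gal3st1 and Ugt8a, enzymes of sulfatide and galactolipid synthesis, and Cd9, a tetraspanin. Their best percentiles in proliferating and differentiating cells were 91.1 and 98.1 for Gal3st1, 92.0 and 97.6 for Ugt8a, and 95.5 and 97.8 for Cd9. Of 11 transcription factors that act on myelin genes, 10 had a peak in each state and 8 a promoter-region peak in either, led by Sox10 (percentiles 98.3 and 97.4), Olig1 (97.6 and 97.2), Tcf7l2 (87.8 and 97.6) and Zfp24 (92.3 and 96.8), the proliferating value first.

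Among markers of oligodendrocyte precursors, the cell type the labels give, 10 of 10 genes had a peak in proliferating and 9 of 10 in differentiating cells. The highest ranks were at Lhfpl3, Cspg5, Ptprz1 and Cspg4 (best percentiles in either state 99.6, 99.2, 97.8 and 94.8). Each is the best of all peaks in a window, and Lhfpl3 had 45 in proliferating and 40 in differentiating cells. For other cell types the counts were 7 and 5 of 8 astrocyte markers, of which Sox9 also stands among the precursor genes, 5 and 4 of 8 neuronal markers, 4 and 3 of 8 microglial markers and 5 and 5 of 7 Schwann cell markers. By the best percentile in either state, the leading astrocyte markers were Slc1a3, Aldoc, Gfap and Aldh1l1 (97.4, 93.2, 92.2 and 89.7). The leading neuronal markers were Syt1, Map2, Snap25 and Rbfox3 (92.1, 84.2, 69.0 and 62.2). The microglial ones were Aif1, P2ry12, Cx3cr1 and Ptprc (90.1, 82.5, 73.3 and 70.9), and the Schwann cell ones Egr2, Pmp22, Prx and Ncmap (98.7, 96.4, 93.8 and 93.0). Peaks of these marker genes were assigned by window alone, and that at Cx3cr1 also lay over Gorasp1 and Ttc21a. No expression was measured here. As shares, the counts of the 9 genes (77.8% and 66.7%) lay within the range of these lists, which ran from 4 of 8 to 10 of 10 genes in proliferating and from 3 of 8 to 10 of 11 genes in differentiating cells. The lists were not matched for length, since the median window was 106561 bp for the precursor genes and 148582 bp for the neuronal genes, against 55698 bp for the members.

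**Figure D4:**
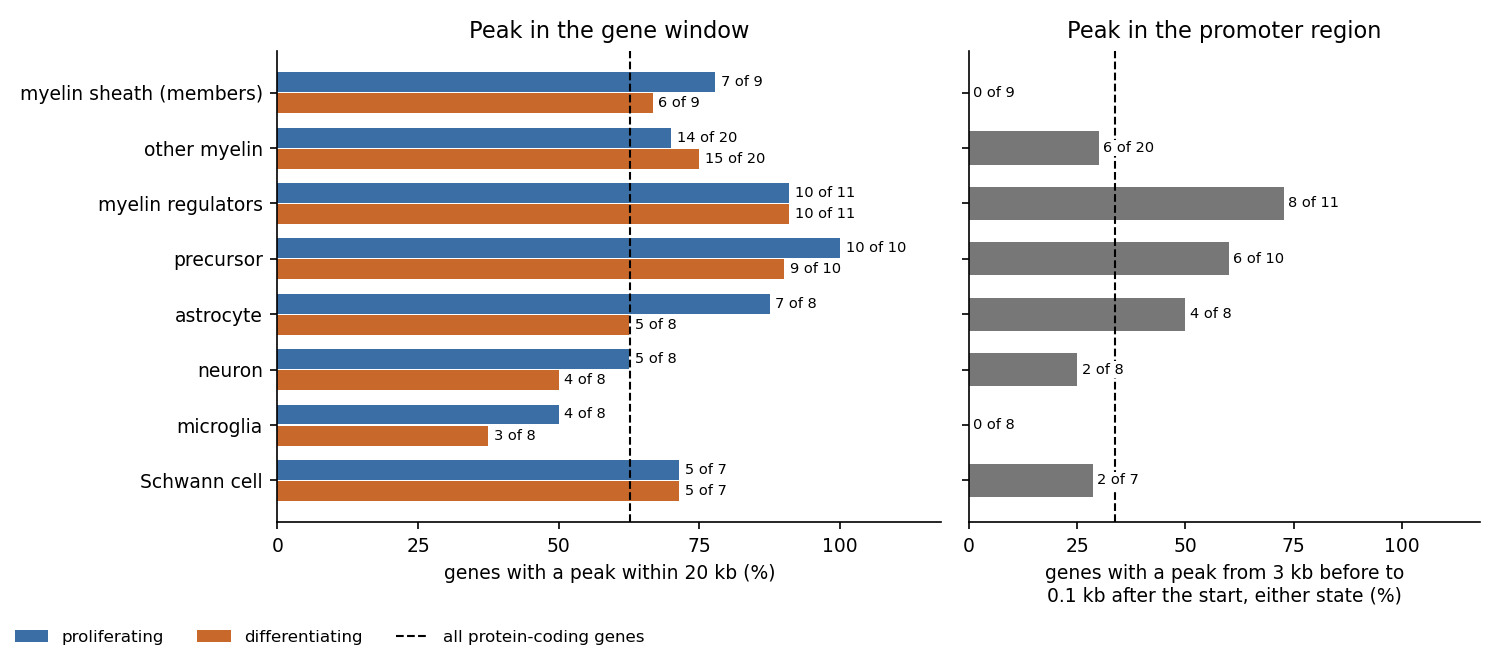
Share (%) of genes in each list with an H3K27ac peak within 20 kb (left; blue proliferating, orange differentiating) and with a peak from 3 kb upstream to 0.1 kb downstream of the start in either state (right, grey), with the counts beside the bars. Dashed lines give the share of all protein-coding genes, 62.7% and 33.8%. The 9 myelin sheath genes lie above the line on the left, at 77.8% in proliferating and 66.7% in differentiating cells. On the right they lie at 0, as do the microglial markers.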

How the data were processed

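The H3K27ac ChIP-seq peaks of 2 Oli-neu states, each from 1 library, were analysed. According to the methods and the submitters' processing notes, the authors aligned reads with Bowtie2 2.1.0 to GRCm38/mm10, kept uniquely mapped reads, removed PCR duplicates with SAMtools, called broad peaks per library with MACS2 2.0.10 and removed blacklisted regions with bedtools. The deposited lists have no header. The fourth column joins 3 values, taken in MACS2's usual order to be a ratio (fold enrichment), then a p-value and a q-value, each as −log10. The deposited lists give no depth, and the study's methods give only the numbers of uniquely mapped reads.

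Peaks were assigned to the GENCODE M21 span of each gene with 20 kb on each side, with bedtools 2.31.1, Python 3.11.15, numpy 2.4.6, pandas 2.3.3, scipy 1.17.1 and matplotlib 3.10.9, and any shared base counted as overlap. The same counts over all 21951 protein-coding genes, or over all peaks, are given as background. The code that counts peaks in windows was checked on simulated peaks with planted overlaps. Sequences come from the RefSeq GRCm38 genome, and no peak passed the end of its chromosome there. The 95% binomial intervals are exact.

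All 9 members were described with every peak. Of each other list, the count and at most 4 genes with the best −log10 q percentile in either state were named. Genes under a member's peak were named too. Some genes that this rule would name are not reported here. The members and lists were chosen with earlier results of these data known. Alternatives were other windows, gene spans, peak thresholds, overlaps and promoter definitions.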

Additional observations from a re-analysis of the deposited data

How the results depend on the processing

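Of the 64 values computed under the alternatives, 42 stayed within 1.5 times the reported count. All 22 others follow from fewer or more bases or peaks being counted. With the gene body alone, 4 of 9 genes had a peak in proliferating cells, against 41.9% of all protein-coding genes. The peaks over the gene bodies numbered 7 and 8 in proliferating and differentiating cells, and 3 in each had a counterpart. With 50 kb on each side the peaks numbered 22 and 26. When peaks with a −log10 q below 5 were left out, 0 genes, 0 peaks and 0 counterparts were left in proliferating cells. In differentiating cells 1 gene (Cnp) with 1 peak and 0 counterparts was left. Most protein-coding genes with a peak within 20 kb also lost it at this threshold. Of 13767 such genes 1866 kept a peak in proliferating cells, and of 13774 such genes 2378 kept one in differentiating cells. With peaks at or above the median fold enrichment of their list, 6 and 9 peaks were left, 3 in each with a counterpart. A promoter region reaching 6000 bp upstream gave 3 genes with a peak in it (Mal, Mog and Opalin), against 0. With 1000 bp on both sides, or with the TSS of every transcript, there was 1 (Cnp). For these definitions no share over all genes was computed. The absence of peaks at Mag and Mobp within 20 kb rests on lists with a threshold, from libraries that differ in uniquely mapped reads. No paired analysis was possible because each state has 1 library and no test was run. The ATAC-seq samples with replicate numbers were not analysed here.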
